A study of Mus musculus with 2 samples.

Results

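Iron handling and metallothionein genes were followed through the cells of a mouse glioblastoma. The 10 genes were Trf, Tfrc, Fth1, Slc40a1, Slc11a1, Slc11a2, Ncoa4, Mt1, Mt2 and Mt3, picked by symbol out of the 19059 genes counted. They had been chosen from earlier results of the same counts, on their level and detection in each cell class, their concentration in few cells, and the vehicle against Xevinapant difference. Those values are therefore given as a description, without a test, and the rule has no threshold that would put other genes just outside it.

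The tumors grew from mGSC, a mouse glioblastoma stem cell line of genotype Trp53+/- and Nf1+/-, implanted in the brain of C57BL/6J mice. The mice received vehicle or Xevinapant, an oral SMAC mimetic that antagonizes inhibitor of apoptosis proteins, daily for 7 days. All groups therefore share the tumor genotype and the host strain, and 1 tumor line stands for the disease. Single cells were profiled with gene probes, and each unique molecular identifier (UMI) counts 1 captured molecule. The study describes 4 mice per group, but the labels give 1 pool and 1 batch date per group and do not say which of the 4 matrices of a pool is which mouse. The labels also give total RNA for the vehicle pool and polyA RNA for the Xevinapant pool. Pool, batch date, RNA label and treatment cannot be told apart. The deposited names of the Xevinapant matrices carry the word vehicle as well, and every group difference below rests on the sample under which each matrix was recorded.

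The 8 matrices held 56943 barcodes and 1163463035 UMIs, with medians of 7452 to 14027 UMIs per barcode in a matrix, and 50818 cells were kept. Some matrices were nearly alike (vehicle 1 with 3, Xevinapant 1 with 2 and Xevinapant 3 with 4), and such a pair was counted as 1 sample. Values below are always given in the same order, vehicle samples 1/3, 2 and 4 and then Xevinapant samples 1/2 and 3/4. With 3 samples against 2, an exact permutation test of a single value, two-sided on the size of the difference, cannot go below p = 0.1. A further 1413 barcodes occurred in a vehicle matrix and in the Xevinapant matrix of the same number, and in 1121 of these the UMI counts differed at least 50-fold. Leaving them out moved the count of member comparisons without overlap between the groups from 20 to 21 of 70.

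Cells were put in classes by marker UMIs. This gave 36515 tumor-like, 849 macrophage-like, 447 microglia-like, 427 intermediate myeloid, 203 endothelial-like and 402 fibroblast-like cells, while 11286 cells met no gate. The share without a gate was 21.3%, 19.2%, 15.3%, 27.7% and 27% of kept cells by sample, higher in both Xevinapant samples. Within the tumor-like cells, 2029 were astrocyte-like (AC-like), 2629 hypoxic mesenchymal-like (MES-like), 5075 carried Gpr17 and other markers of committed oligodendrocyte precursors, and 25760 were in no named state. The marker lists that set the gates differ between the classes by construction. The summed macrophage list stood at 7980 counts-per-million (CPM) in macrophage-like and 13.4 CPM in tumor-like cells, and the endothelial list at 13600 and 16.8 CPM. Intermediate cells held both myeloid lists, with 749 CPM of the microglia list and 2960 CPM of the macrophage list, and stay without a cell type name. Tumor genes were found in every other class at 5.09% to 14% of their tumor-like level, so a low level of a member in those classes is read against that share.

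Iron travels in blood bound to transferrin, enters cells through the transferrin receptor, and leaves the endosome through a divalent metal transporter. Inside the cell it is stored in ferritin, released again when ferritin is delivered to the lysosome, and exported by ferroportin, and macrophages are known for recycling iron from red cells in this way. Iron regulatory proteins bind hairpins called iron-responsive elements in the mRNA of several of these genes. Metallothioneins are small cysteine-rich proteins that bind zinc and copper, and their genes are known to be switched on by metals and by stress.

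The iron-responsive hairpins are shown because they tie storage, export and uptake to the same regulators. The search took a bulged C, 5 bases, the loop CAGTGN with its last base other than G, and 5 bases that pair with the first 5, with at least 4 of the 5 pairs Watson-Crick. It ran on the sense strand of coding transcripts of the GRCm38 annotation. Such an element was found in 110 of 21877 coding genes (0.503%) and in 3 of the 10 members. Elements with a bulge among the 5 pairs would be missed, so a gene may hold more elements than were found. The 6 loop bases are in capitals, with 5 further bases shown at either end, and the coordinates cover the 17 bases of the element. Exon numbers are those of 1 annotated transcript per element and can differ in other transcripts of the gene. Fth1 and Slc40a1 each carried 1 in the 5′ UTR, at chr19:9982738-9982754 in exon 2 on the plus strand and at chr1:45925471-45925487 in exon 1 on the minus strand. Tfrc carried 4 in the 3′ UTR, all in exon 19 on the plus strand, at chr16:32631225-32631241, chr16:32631604-32631620, chr16:32631669-32631685 and chr16:32631716-32631732.
Fth1 5′ UTR: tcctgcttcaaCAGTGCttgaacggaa
Slc40a1 5′ UTR: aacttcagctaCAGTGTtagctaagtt
Tfrc 3′ UTR, site 1: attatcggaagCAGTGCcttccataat
Tfrc 3′ UTR, site 2: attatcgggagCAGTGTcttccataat
Tfrc 3′ UTR, site 3: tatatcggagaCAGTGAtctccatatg
Tfrc 3′ UTR, site 4: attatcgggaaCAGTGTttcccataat
The Fth1 and Slc40a1 elements lie upstream of the reading frame and the Tfrc elements downstream of it. A match describes the letters only, and no protein binding was measured.

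The Mt1 and Mt2 promoters are shown because these genes moved together from cell to cell in the values below. Both strands were searched for the letters TGCACNC and TGCGCNC, the core of metal response elements bound by the zinc sensor MTF1. The windows come from RefSeq on GRCm38.p6 and run from 250 bases before to 50 after a gene's start, and 257 bases of each are printed on the sense strand with the matches in capitals. Of 32851 promoters, 25.7% held at least 1 match, 1.97% at least 3 and 0.517% at least 4. Mt1 held 3 matches, with first bases at -23, 2 and 20 from the start, and Mt2 held 4, at -223, -128, -50 and 4. These positions count from the annotated RefSeq start only. Letters outside the window were not searched, so a gene may hold more matches than were found.
Mt1, chr8:94178859-94179115, plus strand: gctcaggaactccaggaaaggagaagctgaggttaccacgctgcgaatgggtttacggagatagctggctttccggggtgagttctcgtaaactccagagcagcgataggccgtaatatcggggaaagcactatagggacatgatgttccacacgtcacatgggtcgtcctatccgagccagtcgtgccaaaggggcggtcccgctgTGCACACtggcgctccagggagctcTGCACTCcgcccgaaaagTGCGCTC
Mt2, chr8:94172388-94172644, plus strand: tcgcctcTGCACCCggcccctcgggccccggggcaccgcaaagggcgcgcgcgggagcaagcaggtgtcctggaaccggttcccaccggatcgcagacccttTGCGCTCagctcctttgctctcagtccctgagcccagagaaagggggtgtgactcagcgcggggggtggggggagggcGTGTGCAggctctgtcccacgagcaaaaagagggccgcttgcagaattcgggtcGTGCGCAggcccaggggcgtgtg
Mt3 had 1 match, at 27 from the start. Entries were present for 7 members, and Trf, Slc40a1 and Slc11a2 had none. Tfrc and Ncoa4 held matches in 1 of their windows each, while the Fth1 and Slc11a1 windows held none of these letters.

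Across cell classes the members split into genes of myeloid cells, genes of tumor states and genes found broadly. Only classes with at least 10 cells in every sample were ordered. This left out 288 neutrophil-gated and 154 monocyte-gated cells, among others. Of the classes ordered, Fth1, Slc40a1, Slc11a1 and Trf were highest in macrophage-like or intermediate cells. Tfrc, Mt1 and Mt2 were highest in hypoxic MES-like cells, and Mt3 in AC-like cells. Neutrophil-gated cells, with 5 and 8 cells in vehicle samples 2 and 4, held means of 8670 CPM of Fth1 and 509 CPM of Slc11a1. Slc11a2 and Ncoa4 differed less between classes. Class means are over the 5 samples, with the SD over samples, and neighbours in an order are called apart only where the means differ by more than the sum of their SDs.

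**Figure D1:**
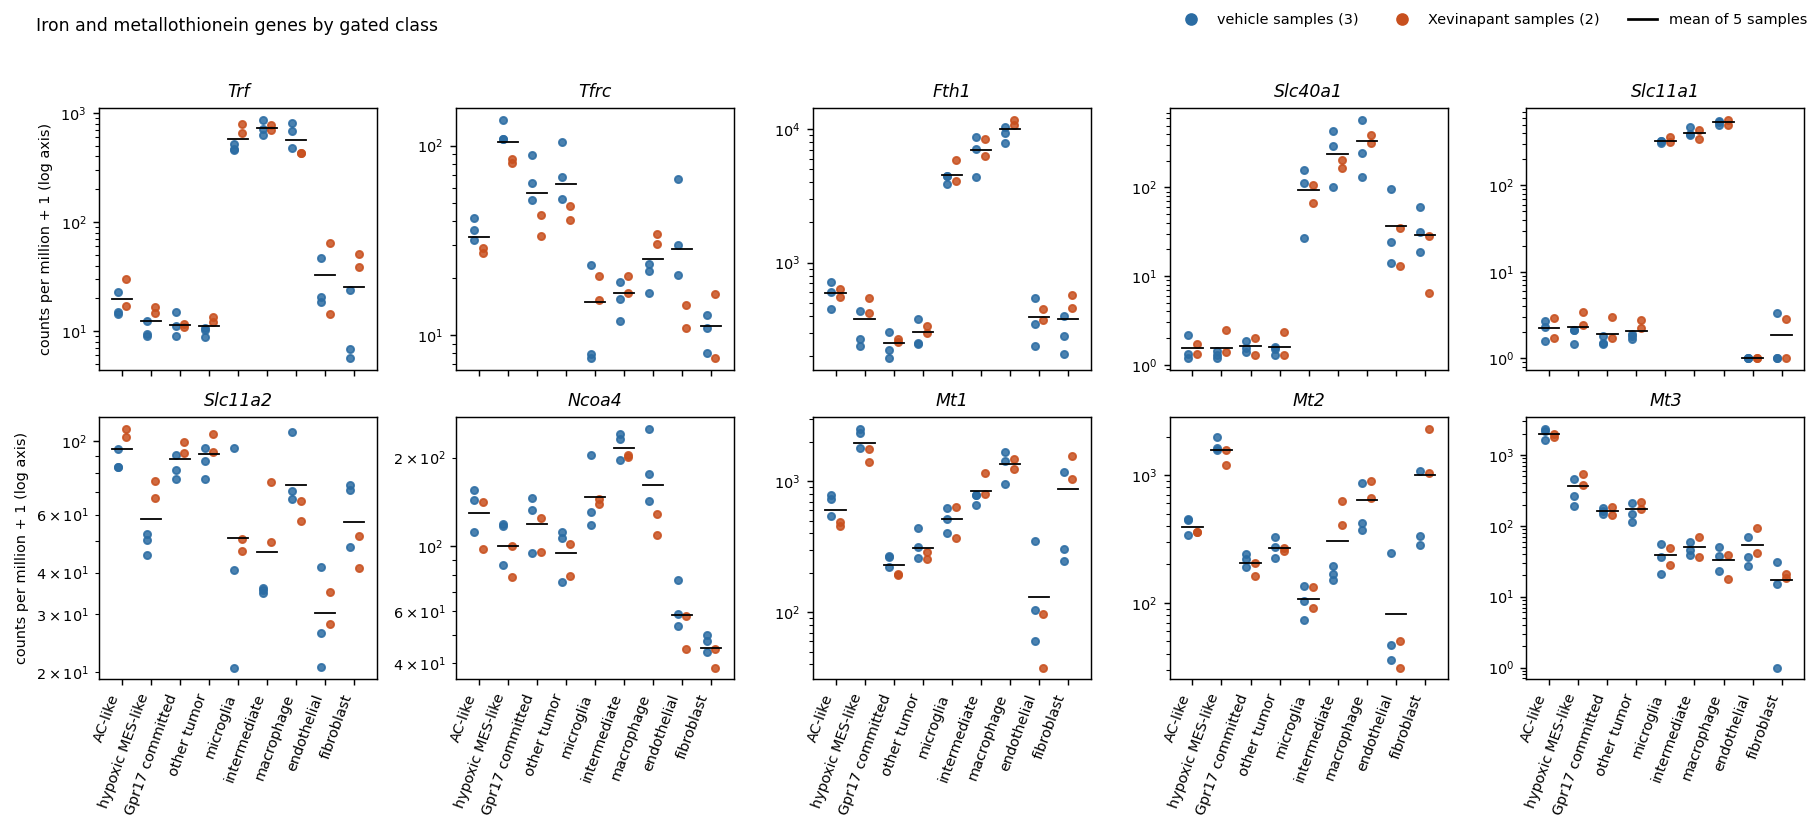
Level of each of the 10 genes in 9 classes, in CPM plus 1 on a log axis whose range differs between genes. Each point is 1 of the 3 vehicle or 2 Xevinapant samples and the bar is the mean of the 5, and Slc11a1 stands near 500 in macrophage-like cells and at 0 in all endothelial-like samples.

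Trf encodes transferrin, the iron carrier of plasma, which oligodendrocytes are also known to make. Here it was highest in 3 myeloid classes. Intermediate cells held 735 ± 90.9 CPM (SD, n = 5), microglia-like cells 578 ± 147 CPM and macrophage-like cells 565 ± 170 CPM, and these 3 neighbours were not apart. The smaller monocyte-gated and neutrophil-gated classes held 103 and 67.2 CPM. In tumor-like cells Trf stood at 10.7 ± 1.8 CPM, and endothelial-like and fibroblast-like cells held 31.9 and 24.3 CPM. Microglia-like cells had 54 times the tumor-like level, and 44.5 to 71.9 times within single samples.

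Tumor-like cells with more Trf differed from the rest. A Trf UMI was found in 12.3% of tumor-like cells, so a top 10% takes in most cells with any. Of 7949 Trf UMIs in tumor-like cells, the 10% of cells with the most held 89.2%, and 1 cell held 103 UMIs. A second ranking took the share of Trf in each cell's UMIs, and its top 10% held 75.8 CPM of Trf against 1.44 CPM in the others. In that top 10% the summed mature oligodendrocyte list stood at 67.9 CPM, against 17.2 CPM in the other tumor-like cells. The macrophage list stood at 15.5 and 11.6 CPM. Whether these are host oligodendrocytes, tumor cells or droplets with both was not tested.

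Tfrc, the transferrin receptor, was highest in tumor cells. It reached 103 ± 22.5 CPM in hypoxic MES-like cells, 61.9 ± 25.6 CPM in unnamed tumor cells, 55 ± 21.5 CPM in Gpr17 committed cells and 32 ± 5.83 CPM in AC-like cells. The hypoxic level was above that of unnamed tumor cells in 5 of 5 samples, by 1.31 to 2.08 times, while the means differed by less than the sum of their SDs. Macrophage-like and microglia-like cells held 24.3 and 13.9 CPM. Detection ran the same way, with a Tfrc UMI in 65.8% of hypoxic MES-like cells, 50% of all tumor-like cells, 15.8% of macrophage-like and 11.9% of microglia-like cells. After thinning to 3000 UMIs per cell the shares were 21.6% to 32.1% by sample in hypoxic MES-like, 13.1% to 24.2% in tumor-like, 3.13% to 10.1% in macrophage-like and 0% to 6.24% in microglia-like cells.

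Fth1 encodes the ferritin heavy chain, which oxidizes iron for storage. It stood at 9950 ± 1500 CPM in macrophage-like, 6950 ± 1740 CPM in intermediate and 4550 ± 774 CPM in microglia-like cells. AC-like cells followed with 591 ± 100 CPM, and the microglia-like mean was apart from that. Macrophage-like cells were above tumor-like cells by 26.7 to 35.3 times in every sample. The level of the light chain gene Ftl1 was not analysed here, while its 5′ UTR held 1 hairpin of the kind shown above, in exon 1 on the minus strand at chr7:45459785-45459801.

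Slc40a1, ferroportin, is the known cellular iron exporter. Its level was 331 ± 168 CPM in macrophage-like, 238 ± 128 CPM in intermediate, 93.1 ± 49.6 CPM in microglia-like and 35.6 ± 34.9 CPM in endothelial-like cells, against 0.589 CPM in tumor-like cells. Macrophage-like samples themselves ranged from 132 to 580 CPM, so no neighbour at the top of this order was apart. A UMI was found in 22%, 42.9%, 24%, 37.2% and 21.8% of macrophage-like cells by sample. After thinning to 3000 UMIs per cell, which kept 68, 29, 28, 385 and 133 cells, the shares were 18.7%, 36.1%, 21.3%, 28% and 19.9%. In tumor-like cells, of higher depth (median 14809 against 6166 UMIs), 0.915% had a UMI.

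Few macrophage-like cells carried most of the exporter. Of 2398 Slc40a1 UMIs, 24 of 849 cells held 50% and the top 10% of cells held 80.4%, with up to 117 UMIs in a cell. The top 10% held 74.9% to 92.2% within single samples. A second ranking took the share of Slc40a1 in each cell's UMIs, pooled over samples, and its top 10% need not be the same cells. Those 85 cells had 2410 CPM of Slc40a1 against 102 CPM in the others. They also had 712 against 432 CPM of Trf and 781 against 528 CPM of Slc11a1. Their Mt1 was lower, at 751 against 1460 CPM. Because 56.3% of macrophage-like cells came from Xevinapant sample 1/2, these pooled figures lean on that sample.

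Slc11a1, the divalent metal transporter of phagosomes, was found in the myeloid classes. It stood at 533 ± 34.8 CPM in macrophage-like, 404 ± 48 CPM in intermediate and 328 ± 20.7 CPM in microglia-like cells, and neighbours in this order were apart. Tumor-like cells held 1.08 CPM. Endothelial-like cells held 0 UMIs in all 5 samples, which allows up to 2.27 CPM and up to 1.48% of the 203 cells with a UMI, for counting error only. At a median of 3502 UMIs per cell this limits cells with a UMI, not cells that express the gene.

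Slc11a2, the endosomal transporter known as DMT1, was spread over tumor and host classes. AC-like cells held 93.7 ± 11.4 CPM and unnamed tumor cells 90.5 ± 10.3 CPM, macrophage-like cells 72.5 ± 19.3 CPM and endothelial-like cells 29.2 ± 8.1 CPM. Hypoxic MES-like cells, at 57.2 ± 12.7 CPM, lay below unnamed tumor cells in 5 of 5 samples, the opposite of Tfrc. Ncoa4, the receptor that carries ferritin to lysosomes, ran from 214 ± 20.4 CPM in intermediate cells to 44 ± 4.28 CPM in fibroblast-like cells. In the 59 erythroid-gated cells Ncoa4 stood at 210, 89.5, 1150, 631 and 648 CPM, from 4 to 24 cells per sample. These levels rest on 1, 2, 9, 21 and 23 UMIs.

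Mt1 and Mt2, the broadly expressed metallothioneins, followed the hypoxic state of the tumor. Mt1 stood at 1950 ± 447 CPM in hypoxic MES-like cells and 311 ± 76.8 CPM in unnamed tumor cells, 4.93 to 7.4 times apart within samples. Mt2 stood at 1580 ± 276 and 269 ± 37.3 CPM, 4.47 to 6.96 times apart. Macrophage-like cells held 1350 ± 270 CPM of Mt1 and 643 ± 242 CPM of Mt2, and microglia-like cells 510 ± 125 and 107 ± 27.1 CPM.

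Cells with more Mt1 also held more Mt2. Within hypoxic MES-like cells the correlation of Mt1 and Mt2 over cells was 0.81 to 0.836 in the 5 samples (2629 cells), and in all 36515 tumor-like cells 0.682 to 0.73, where the cells of a sample share a library and both genes share the cell's depth. Mt1 and Mt3 gave 0.0395 to 0.301 over hypoxic cells. Tfrc and Fth1, which carry their hairpins at opposite ends of the mRNA, gave -0.188 to -0.0652 over the same cells, a weak relation in counts this low.

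Mt3, the brain metallothionein known from astrocytes and neurons, marked AC-like cells. It stood at 2320, 1630, 2180, 1800 and 1990 CPM there, a mean of 1990 ± 278 CPM, against 367 ± 142 CPM in hypoxic MES-like and 171 ± 43.7 CPM in unnamed tumor cells. AC-like and hypoxic cells were apart, and AC-like cells were above unnamed tumor cells by 8.33 to 14.7 times. In fibroblast-like cells Mt3 stood at 16.1 CPM, where tumor RNA at the share measured there would give 23.9 CPM. Microglia-like and macrophage-like cells held 37.2 and 32.4 CPM, above the 20.5 and 15.3 CPM that such a share would give, in 5 of 5 samples each.

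**Figure D2:**
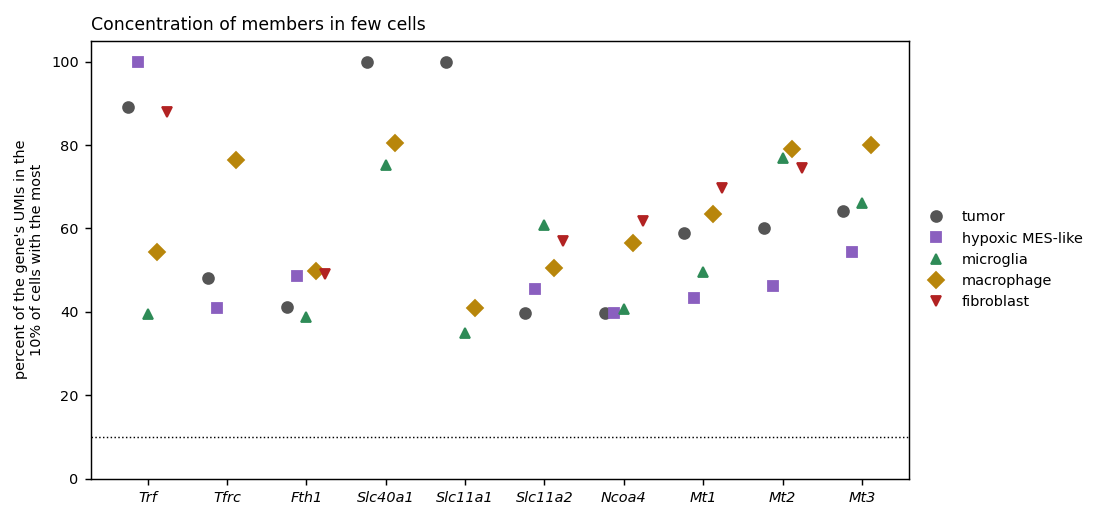
Percent of each gene's UMIs held by the 10% of cells with the most UMIs of that gene, in 5 classes, for genes with at least 100 UMIs in the class. The dotted line at 10% marks an even spread, and a value of 100 means that fewer than 10% of the cells had a UMI of the gene. Slc40a1 in macrophage-like cells lies at 80.4%.

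Among myeloid cells the members formed different gradients. Cells were ordered in 7 bins by the rate of the microglia list over that of the macrophage list, from under 1/32 to over 1, a split made after values of these genes were seen. Slc40a1 went from 385 CPM in the most macrophage-rich bin to 34.2 CPM in the most microglia-rich bin, Fth1 from 11400 to 4690 CPM, Slc11a1 from 616 to 290 CPM and Mt1 from 1420 to 493 CPM. Hmox1, the heme oxygenase that frees iron from heme, went from 14900 to 433 CPM along the same bins. Trf and Ncoa4 instead peaked in between. Trf went from 386 CPM to 740 CPM in the bin of 1/8 to 1/4 and to 442 CPM in the last, and Ncoa4 from 98.2 to 239 and 116 CPM. The first bin held 528 cells, 336 of them from Xevinapant sample 1/2, so the bins also differ in sample. Under 1/32 Slc40a1 stood at 337, 68.1, 44, 356 and 562 CPM by sample. From 1/32 to 1/8 it stood at 178, 695, 178, 244 and 136 CPM. Fth1 stood at 10300, 4820, 4050, 11700 and 12200 CPM under 1/32. From 1/32 to 1/8 it stood at 10300, 8440, 12000, 8820 and 11100 CPM. In vehicle samples 2 and 4 both genes were thus lower under 1/32, the reverse of the pooled order. These samples held 12 and 26 cells under 1/32, and 30 and 24 cells from 1/32 to 1/8. For Slc40a1 few cells set these levels. In vehicle sample 2, 2.38% of the 42 macrophage-like cells held 50% of the 185 Slc40a1 UMIs. In vehicle sample 4, 4% of the 50 cells held 50% of the 35 UMIs.

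**Figure D3:**
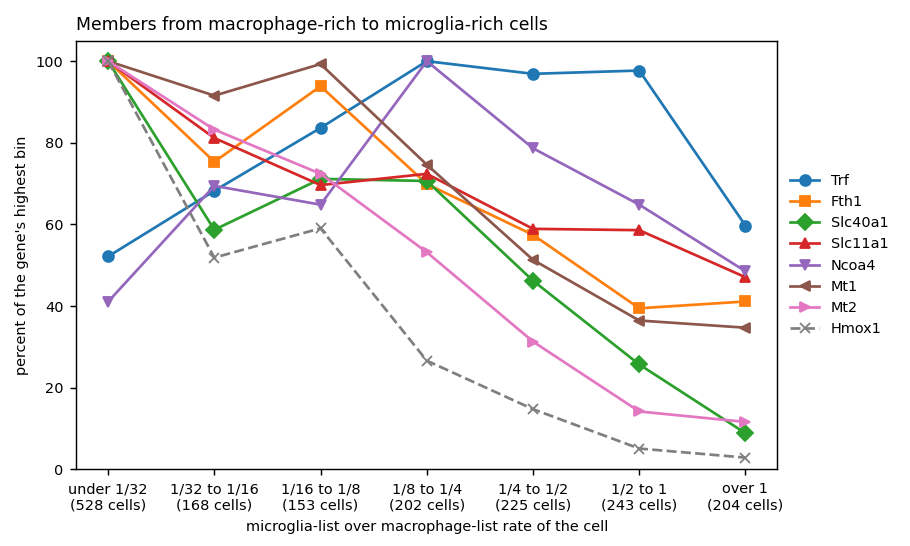
Level of 7 members and of Hmox1 (dashed) in myeloid cells, as percent of the gene's highest bin, against the ratio of microglia-list to macrophage-list UMIs per 10000 (each plus 1). Cells per bin stand under the axis, pooled over samples. In this pool Trf and Ncoa4 peak at 1/8 to 1/4 while Slc40a1, Fth1 and Mt1 are highest under 1/32. For Slc40a1 and Fth1 that order was not kept in every sample.

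Genes with the most alike pattern over 9 class means were named by Pearson r of log2(CPM + 1), out of 11031 genes without the gate markers. They are a description, with the classes sharing samples. Trf was closest to Lgmn (0.999), a lysosomal protease, then Ncf4 and Arl11 (both 0.995). Slc11a1 was closest to Igsf6, Fcgr1 and Lpxn (each 0.999), Slc40a1 to Ell2 (0.998), Tnfrsf1b (0.995) and Cyba (0.993), and Fth1 to Slc37a2 (0.992), Cd14 and AB124611 (both 0.989). Mt3 was closest to Mmd2 (0.984) and Ttyh1 (0.981), Mt1 to Egr2 (0.958), Selenbp1 (0.95) and Noct (0.942), and Mt2 to Clybl (0.956), Flot1 and Noct (both 0.912). For Tfrc these were Zfp511 (0.976), Tab3 (0.975) and Rassf7 (0.974), for Slc11a2 Gstp1 (0.974), Mfsd3 (0.952) and Cdk10 (0.949), and for Ncoa4 Pacs2 (0.976), Atp6v0d1 (0.975) and Syngr1 (0.972).

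The second question was how the members differed between vehicle and Xevinapant tumors. Over the 7 named classes with at least 10 cells in every sample, leaving out Gpr17 committed cells, the groups did not overlap in 20 of 70 member comparisons, with Xevinapant above in 11 and below in 9. Intermediate myeloid, Gpr17 committed and unnamed tumor cells also had 10 cells in every sample. They were without overlap in a further 9 of 30, above in 6 and below in 3. The share over all genes was not computed for these added classes, so nothing is read from that count. Groups that do not overlap are frequent among all genes tested, at 29.9% in tumor-like, 22.9% in AC-like, 38.4% in hypoxic MES-like, 20% in microglia-like, 25.5% in macrophage-like, 27.2% in endothelial-like and 21.2% in fibroblast-like cells. Of the members that passed the low-count filter, 3 of 10, 3 of 8, 5 of 9, 1 of 10, 5 of 10, 0 of 4 and 2 of 7 were without overlap in those classes, and since this contrast chose the members nothing is read from these counts.

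Trf differed in opposite directions in the 2 main myeloid classes. In microglia-like cells it stood at 453, 524, 463, 798 and 655 CPM. The vehicle mean of 480 ± 38.3 CPM (n = 3) and the Xevinapant mean of 727 ± 101 CPM (n = 2) differ by a log2 fold of 0.60, with both Xevinapant samples above every vehicle sample. In macrophage-like cells it stood at 477, 805, 684, 429 and 430 CPM, a log2 fold of -0.61, with both Xevinapant samples below. Intermediate cells overlapped, at 622, 866, 708, 772 and 704 CPM. The difference between the classes was not tested.

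The makeup of the macrophage-like class moved with treatment as well. Its summed macrophage list stood at 7750, 5020, 5310, 12000 and 9820 CPM, higher in both Xevinapant samples, with all 9 markers detected. Within the cells at a microglia to macrophage ratio of 1/32 to 1/8, Trf stood at 569, 856, 719, 550 and 404 CPM, and the Xevinapant samples were again the lowest. Under 1/32 it stood at 344, 579, 617, 362 and 448 CPM, and the groups overlapped. Without vehicle sample 2 the macrophage difference was -0.43 on the log2 scale, and the part of cell makeup in it was not tested beyond these strata, which were chosen after the values were seen.

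In fibroblast-like, tumor-like and hypoxic MES-like cells Trf was low and lay higher under Xevinapant. Fibroblast-like cells held 23.1, 5.85, 4.67, 50 and 38 CPM, from 7, 1, 2, 110 and 46 UMIs. The log2 fold of 1.97 was 0.52 when cells were averaged one by one and 3.06 without vehicle sample 1/3, and 8 of the 291 Xevinapant cells held 50% of the 156 UMIs. Tumor-like cells held 9.02, 9.55, 10.4, 11.1 and 13.6 CPM. Their log2 fold of 0.35 was 0.19 without Xevinapant sample 3/4 and 0.5 without Xevinapant sample 1/2. The hypoxic MES-like difference of 0.67 on the log2 scale, from 11.4, 8.03, 8.47, 13.7 and 15.8 CPM, was 0.03 under a stricter marker gate. Myeloid cells hold far more Trf, and all 9 markers of the macrophage list were detected in each of these classes. The list summed to 9.93, 5.72, 7.28, 32.9 and 11 CPM in tumor-like, to 6.5, 6.16, 8.91, 29.3 and 9.03 CPM in hypoxic MES-like and to 16.5, 5.85, 21, 57.3 and 9.08 CPM in fibroblast-like cells. It was highest in Xevinapant sample 1/2 in each class. In tumor-like and hypoxic MES-like cells both Xevinapant samples lay above every vehicle sample, and the list's part in the Trf differences was not tested.

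Tfrc lay lower in tumor cells of the Xevinapant group. All tumor-like cells held 67.4, 103, 53.2, 43.5 and 47.7 CPM, with means of 74.5 ± 25.6 and 45.6 ± 2.93 CPM and a log2 fold of -0.71. The Xevinapant samples were below every vehicle sample, and the highest vehicle sample set much of the size, since the log2 fold was -0.40 without vehicle sample 2. The groups were also without overlap in the following tumor states. Hypoxic MES-like cells held 107, 136, 107, 80.1 and 84.5 CPM, AC-like cells 34.8, 40.6, 30.9, 27.7 and 26.2 CPM, and Gpr17 committed cells 62.4, 87.9, 50.4, 32.3 and 42 CPM.

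Cell cycle genes moved with this difference. The summed list of 4 cycling genes, Mki67, Top2a, Cenpf and Ube2c, stood at 2320, 2460, 2460, 1670 and 1910 CPM in tumor-like cells. In tumor-like cells without a UMI of these genes, Tfrc stood at 58.5, 112, 71.4, 64.1 and 51.9 CPM, where the groups overlapped and the log2 fold was -0.47. With at least 2 of the genes detected it stood at 67.7, 103, 52.3, 40.8 and 47 CPM, without overlap, a log2 fold of -0.76. Their part in the Tfrc difference was not tested otherwise.

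Outside the tumor, Tfrc went in opposite directions. Macrophage-like cells held 20.7, 15.7, 22.7, 29.3 and 33.1 CPM, so the Xevinapant samples were the highest, with a log2 fold of 0.67 that rests on 14, 5, 6, 136 and 47 UMIs. Pooled over samples, Tfrc stood at 37.5 CPM in myeloid cells with a microglia to macrophage ratio under 1/32, and at 20.7 and 10.8 CPM in the next bins. The bin under 1/32 held 55 of 109, 12 of 42, 26 of 50, 336 of 478 and 99 of 170 macrophage-like cells by sample, and the part of this makeup in the Tfrc difference was not tested. In endothelial-like cells, which take up transferrin at the blood-brain barrier, Tfrc stood at 29, 65.8, 19.7, 13.4 and 9.94 CPM. That log2 fold of -1.71 rests on 5, 13, 3, 4 and 5 UMIs, and was -1.06 without vehicle sample 2. The tumor list in these cells stood at 563, 895, 919, 326 and 566 CPM, and tumor RNA at that share would give 1.64 to 12.3 CPM of Tfrc by sample, below the measured level in 5 of 5 samples. Its part in the difference was not tested.

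**Figure D4:**
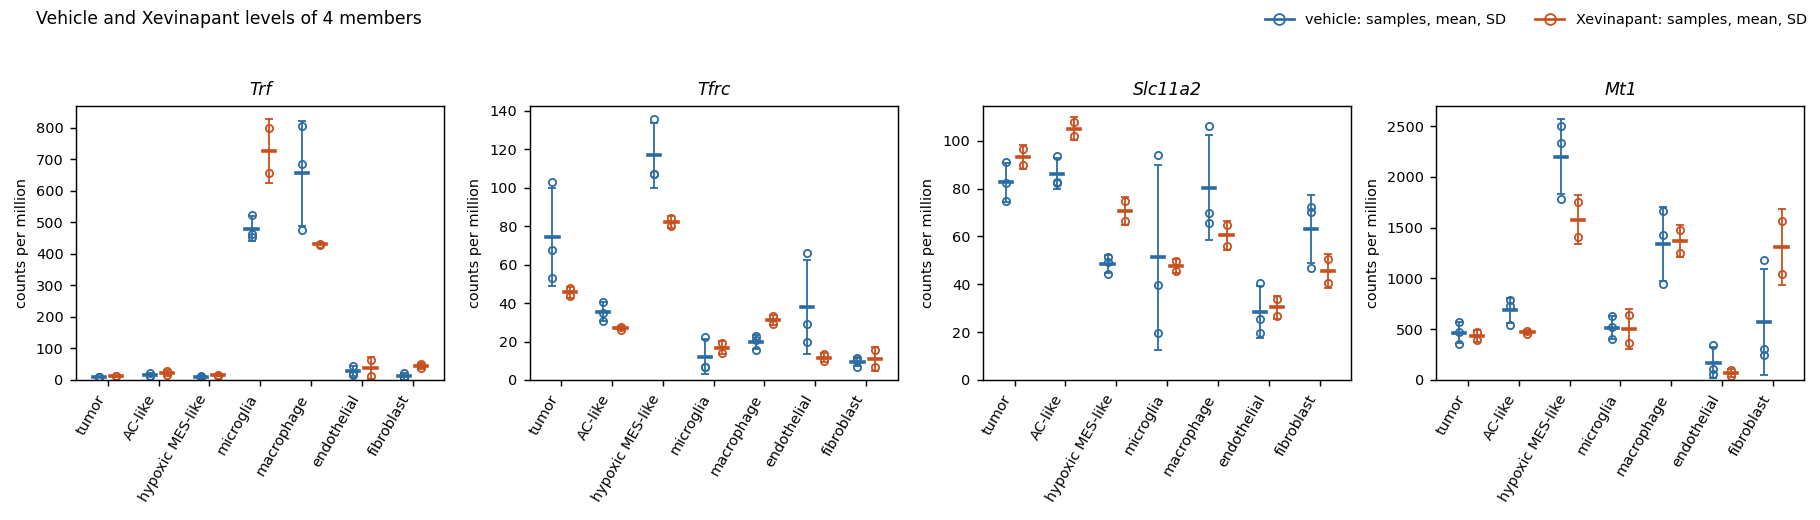
Level of Trf, Tfrc, Slc11a2 and Mt1 in 7 classes, in CPM on linear axes from 0. Open points are samples, the bar is the group mean and the whiskers are 1 SD, for 3 vehicle (blue) and 2 Xevinapant (orange) samples, and Trf lies higher in microglia-like and lower in macrophage-like cells under Xevinapant.

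Storage and release genes of macrophage-like cells also lay apart. Fth1 stood at 10300, 7780, 9280, 10700 and 11700 CPM, a log2 fold of 0.29 with Xevinapant above. That fold was 0.19 without vehicle sample 2 and 0.39 without vehicle sample 1/3. Ncoa4 stood at 175, 141, 249, 108 and 128 CPM, a log2 fold of -0.68 with Xevinapant below, and of -0.42 without vehicle sample 4. Ncoa4 reached 1150 CPM in erythroid-gated cells of vehicle sample 4, from 9 UMIs. The summed list of 5 erythroid genes in macrophage-like cells stood at 141, 175, 2000, 604 and 539 CPM, highest in that same vehicle sample. Its part in the Ncoa4 values was not tested. By the microglia to macrophage ratio, the Fth1 order was kept under 1/32, at 10300, 4820, 4050, 11700 and 12200 CPM, and the groups overlapped from 1/32 to 1/8. Ncoa4 overlapped in each of these strata, with log2 folds of -0.63 and -0.57. Fth1 in fibroblast-like cells stood at 399, 205, 280, 571 and 453 CPM, and in tumor-like cells at 386, 247, 264, 336 and 331 CPM, with overlap there.

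The transporters differed by class. Slc40a1 overlapped in all 7 classes. In macrophage-like cells it stood at 243, 580, 132, 316 and 387 CPM, and its log2 fold of 0.14 was 0.91 without vehicle sample 2 and -0.23 without vehicle sample 4. The samples rest on 164, 185, 35, 1465 and 549 UMIs, and 2.38% of the 42 cells of vehicle sample 2 held 50% of its UMIs. By the microglia to macrophage ratio, Slc40a1 stood at 337, 68.1, 44, 356 and 562 CPM under 1/32, with both Xevinapant samples above. From 1/32 to 1/8 it stood at 178, 695, 178, 244 and 136 CPM, with overlap. Slc11a2 stood at 49.2, 51.5, 44.3, 74.6 and 66.4 CPM in hypoxic MES-like and at 82.5, 93.6, 82.6, 108 and 102 CPM in AC-like cells, with log2 folds of 0.54 and 0.28 and Xevinapant above. In macrophage-like cells it went the other way, at 69.6, 65.8, 106, 56.2 and 64.9 CPM, a log2 fold of -0.41 that was -0.16 without vehicle sample 4. The neighbouring intermediate cells held more under Xevinapant, at 33.7, 34.4, 34.8, 48.6 and 74.5 CPM, a log2 fold of 0.84 without overlap. Slc11a1 overlapped in microglia-like and macrophage-like cells, with log2 folds of 0.09 and 0.01. At the low level of tumor-like cells it stood at 0.782, 0.687, 0.858, 1.95 and 1.11 CPM, a log2 fold of 0.98 with both Xevinapant samples above every vehicle sample, and of 0.51 without Xevinapant sample 1/2 and 1.53 when cells were averaged one by one. Hypoxic MES-like cells held 0.443, 1.12, 1.11, 2.39 and 1.4 CPM, a log2 fold of 1.08, also with Xevinapant above. This rests on 3, 6, 10, 26 and 22 UMIs, and was 0.65 without Xevinapant sample 1/2 and 2.08 when cells were averaged one by one. The macrophage list in tumor-like and hypoxic MES-like cells, given above for Trf, was likewise above every vehicle sample in both Xevinapant samples. It was highest in Xevinapant sample 1/2, and its part in these values was not tested.

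Mt1 lay lower in the named tumor states of the Xevinapant group. Hypoxic MES-like cells held 2330, 2500, 1780, 1410 and 1750 CPM, with means of 2200 ± 373 and 1580 ± 239 CPM and a log2 fold of -0.48. AC-like cells held 730, 783, 544, 485 and 455 CPM, a log2 fold of -0.54, and Gpr17 committed cells 261, 270, 220, 193 and 194 CPM, a log2 fold of -0.37. Mt2 in hypoxic MES-like cells, at 1620, 1970, 1560, 1190 and 1580 CPM, overlapped with a log2 fold of -0.31. Over all tumor-like cells Mt1 overlapped, at 473, 570, 357, 472 and 392 CPM. It also overlapped in unnamed tumor cells, at 315, 441, 258, 286 and 254 CPM, a log2 fold of -0.32. The hypoxic list itself stood at 724, 660, 614, 1320 and 842 CPM over tumor-like cells, higher in both Xevinapant samples.

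In fibroblast-like cells the metallothioneins ranged widely between samples. Mt1 stood at 244, 304, 1180, 1570 and 1040 CPM and Mt2 at 330, 281, 1080, 2290 and 1040 CPM, with log2 folds of 1.18 and 1.57 and overlap, and of 2.25 and 2.45 without vehicle sample 4. With each other sample left out in turn, they were 0.82 to 1.45 for Mt1 and 0.89 to 2.03 for Mt2, and 0.8 and 0.69 when cells were averaged one by one. The 8 genes of the hypoxic list were all detected in these cells and summed to 524, 351, 1580, 2100 and 1550 CPM. Vehicle sample 4 was high in all 3 measures.

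Splitting the fibroblast-like cells by their hypoxic list separated high from low metallothionein cells. With 10 or more hypoxic UMIs per 10000, Mt1 stood at 2080, 3690, 3930, 2920 and 1860 CPM, from 4, 1, 14, 98 and 35 cells. Under 10 it stood at 65.1, 272, 113, 301 and 262 CPM, from 30, 12, 50, 110 and 48 cells, and the groups overlapped. Mt2 under 10 stood at 32.5, 165, 136, 343 and 249 CPM, a log2 fold of 1.41 with both Xevinapant samples above. With 10 or more it stood at 3380, 12300, 3510, 4360 and 1860 CPM, a log2 fold of -1.04 with overlap. The split was made after the values were seen, and the part of hypoxia in the group difference was not tested beyond it.

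**Figure D5:**
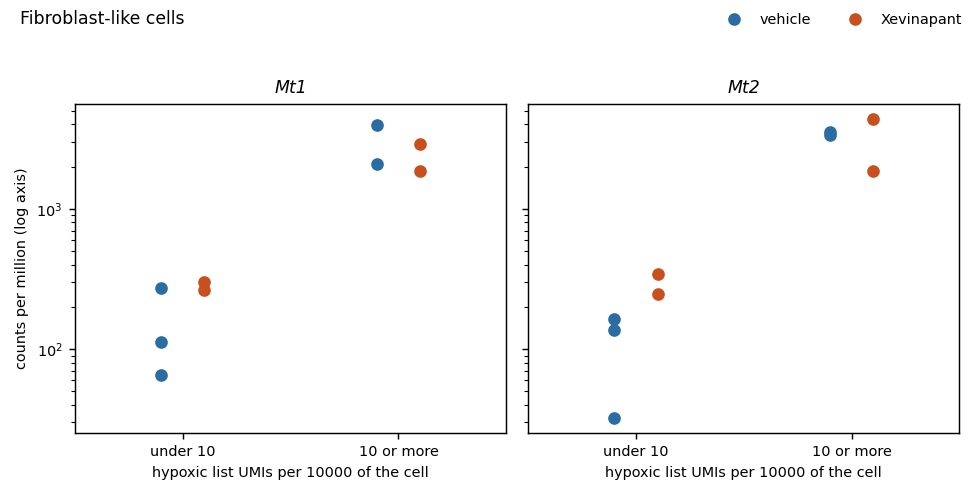
Mt1 and Mt2 in fibroblast-like cells, in CPM on a log axis, split by whether the cell has under 10 or at least 10 UMIs of the hypoxic list per 10000. Each point is a sample, vehicle sample 2 is left out on the right since it holds 1 cell there, and cells with more hypoxic UMIs lie higher in both groups.

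In intermediate myeloid cells Mt2 stood at 166, 192, 149, 405 and 621 CPM, a log2 fold of 1.6 with Xevinapant above. Mt1 there, at 789, 662, 789, 797 and 1160 CPM, gave 0.39, with 1 Xevinapant sample barely above the highest vehicle samples. Over the pooled Xevinapant cells of this class, 4 of 205 held 50% of the 1175 Mt2 UMIs, with 291 in 1 cell, and over the vehicle cells 16 of 222 held 50% of 337 UMIs. Mt3 overlapped in all 7 tested classes. In AC-like cells, where it was highest, its log2 fold was -0.11.

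The neighbours of the members in iron, heme, zinc and copper metabolism were tested with edgeR's quasi-likelihood test, adjusted over all genes of a class by Benjamini-Hochberg at 0.05. Of 61 genes on these lists 60 were counted, and 47, 45, 46, 40, 41, 25 and 37 passed the low-count filter in tumor-like, AC-like, hypoxic MES-like, microglia-like, macrophage-like, endothelial-like and fibroblast-like cells. A single call was made, in macrophage-like cells, where 0.148% of all genes were called in either direction. The other classes gave 0, with 3, 3, 5, 1, 2 and 5 list genes at an unadjusted p under 0.05 in the order above without macrophage-like cells. Over all genes edgeR called 0% in tumor-like, AC-like and microglia-like cells. It called 0.0986% in hypoxic MES-like, 0.64% in endothelial-like and 0.013% in fibroblast-like cells. DESeq2 called 4 list genes over the 7 classes. Over all genes DESeq2 called 211 of 13285 in tumor-like, 28 of 11768 in AC-like and 627 of 11935 in hypoxic MES-like cells. It called 0 of 9152 in microglia-like and 59 of 2138 in macrophage-like cells. In endothelial-like and fibroblast-like cells it called 24 of 5629 and 11 of 7698. Median log2 folds of the lists lay between -0.1 and 0.05, against -0.02 to 0 over all genes tested.

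The called gene was Slc39a14, which encodes ZIP14, a membrane importer of zinc and of iron not bound to transferrin. In macrophage-like cells it rose from 33.1 ± 6.13 to 92.5 ± 9.12 CPM, with samples at 38.5, 34.5, 26.4, 98.9 and 86 CPM. The log2 fold was 1.40 ± 0.23 (SE), with an adjusted p of 0.0497 by edgeR, and both Xevinapant samples above every vehicle sample. Over the alternatives that gave a value and kept more than 1 sample per group, the edgeR adjusted p ran from 1.48e-05 to 0.24. The call was lost without each vehicle sample in turn, at adjusted p of 0.113 to 0.24 by edgeR, with log2 folds of 1.3 to 1.6. Without the barcodes shared between groups it was lost at an edgeR adjusted p of 0.0582, with a log2 fold of 1.38. It was also lost with DESeq2 size factors in edgeR and without doublet removal, at edgeR adjusted p of 0.0508 and 0.0882. The log2 fold was 1.28 without Xevinapant sample 1/2 and 1.52 without Xevinapant sample 3/4. Those fits leave 1 Xevinapant sample, so no p is given and they do not show that the call held. In hypoxic MES-like, tumor-like and AC-like cells its log2 folds were 0.63, 0.49 and 0.47, at adjusted p of 0.117, 0.435 and 0.754 by edgeR, and in microglia-like cells the log2 fold was -0.04. Fibroblast-like cells held 208 and 325 CPM in the vehicle and Xevinapant groups, and 7 of the 8 fibroblast markers were detected in macrophage-like cells, summing to 2240, 2870, 3360, 3430 and 447 CPM. The part of fibroblast RNA in the Slc39a14 values was not tested.

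Hmox1 and a siderophore gene also missed the threshold. Hmox1 stood at 204, 357, 194, 1050 and 671 CPM in fibroblast-like cells, a log2 fold of 1.78 with an adjusted p of 0.314 by edgeR. In macrophage-like cells it stood at 8700, 10900, 6660, 14000 and 8640 CPM, and its edgeR adjusted p over 7 classes ran from 0.314 to 0.995. Lcn2, lipocalin 2, which binds bacterial iron carriers, was named after its values were seen. It stood at 2.96, 0.373, 2.23, 12.4 and 22.9 CPM in hypoxic MES-like cells, a log2 fold of 3.17 with an adjusted p of 0.0777 by edgeR.

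No gene of the iron sensors passed the test. Aco1 and Ireb2, which encode the iron regulatory proteins that bind the hairpins shown above, had log2 folds of -0.14 to 0.03 in 6 classes and -0.31 to 0.26 in 7 classes. Their lowest edgeR adjusted p values were 0.756 and 0.273. Fbxl5, whose product marks iron regulatory proteins for degradation, ran from -0.25 to 0.59 in 7 classes, with its highest value in macrophage-like cells at 124, 97.1, 121, 159 and 195 CPM and a lowest adjusted p of 0.32 by edgeR.

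The remaining named genes also missed the threshold in each class tested. Cp, ceruloplasmin, the oxidase that works with ferroportin, ran from a log2 fold of 0.03 to 0.99 in 5 classes with a lowest edgeR adjusted p of 0.371. Steap3, the endosomal iron reductase, ran from -1.04 to 0.27 in 6 classes, with 0.501 as its lowest edgeR adjusted p. Cd163, the receptor for hemoglobin with haptoglobin, was tested in macrophage-like cells alone, where it stood at 41.4, 113, 106, 102 and 172 CPM with an edgeR adjusted p of 0.507. Mtf1, the zinc sensor whose core letters were searched above, ran from -0.24 to -0.04 in 5 classes. Slc30a1, a zinc exporter, ran from -0.5 to 0 in 7 classes, lowest in macrophage-like cells at 107, 122, 121, 75.6 and 91.6 CPM. The lowest edgeR adjusted p values of these zinc genes were 0.867 and 0.404.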

How the data were processed

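The authors deposited UMI counts per gene and barcode, 4 matrices per group, made with Cell Ranger on mm10 per the labels. The matrix headers give version 7.1.0 and the labels 3.0. Which matrix is which mouse is not given in the sources used here. The names of the Xevinapant matrices carry the word vehicle, and groups follow the sample recorded for each matrix.

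Barcodes with under 200 genes, over 10% mitochondrial UMIs or a complexity (log10 genes over log10 UMIs) under 0.8 were dropped. Doublets were removed by Scrublet score (scanpy 1.11.5), taking the top 0.8% per 1000 barcodes. Pairs of matrices were joined where the chi-square of their class makeup, over its degrees of freedom, was 0.424 to 1.74, while other pairs within a group gave 3.98 to 44.8. Pairs across the groups gave 2.41 to 128. The lowest was vehicle 1 with Xevinapant 4, more alike than any pair within a group that was not joined.

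Classes required sets of marker UMIs per 10000, tumor-like at least 5 markers and 20 per 10000. Myeloid gates also required a pan-immune list that had been planned as a check only. Microglia-like cells had a microglia to macrophage list ratio of at least 0.5 and macrophage-like cells of at most 0.125. Near the cuts, 79 and 54 cells lay just outside these ratios, 364 outside the AC-like and 1173 outside the hypoxic cut.

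Counts were summed per class and sample and given as CPM. The 3 vehicle and 2 Xevinapant samples were tested with edgeR 4.0.16 (quasi-likelihood, TMM, filterByExpr), in R 4.3.3, with DESeq2 1.42.0 as an alternative. The labels do not say that the samples are separate animals, so p-values measure the spread between these samples, which may be technical. On simulated counts, edgeR recovered 21% to 75% of genes changed 2-fold and 75% to 99% changed 4-fold, by class. Of the calls there, 3% to 16.3% were false by class, and 8.3% in macrophage-like cells. Intervals and limits cover counting error only.

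The members and gene lists were chosen with earlier results of these data known. Named genes were the 10 members, Ftl1, Hmox1, Aco1, Ireb2, Fbxl5, Cp, Mtf1, Slc30a1, Cd163 and Steap3, any list gene past the threshold, and the 3 genes most like each member, of which 1 is not reported here. Strata within classes and the settings without shared barcodes and with a block for the matrix number were chosen after values were seen. Other alternatives were size factors, no low-count filter, each matrix as 1 sample, a stricter gate, no doublet removal, no mitochondrial limit, means over cells, and each sample left out.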

Additional observations from a re-analysis of the deposited data

Results flagged for a closer look

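Differences between the groups ran one way in some classes and the opposite way in others for 4 members, on the log2 scale of Xevinapant over vehicle, with no overlap of samples in each class named. The differences between classes were not tested. For Trf the values were 0.35 in tumor-like, 0.39 in unnamed tumor, 0.6 in microglia-like, 1.97 in fibroblast-like and 0.67 in hypoxic MES-like cells, against -0.61 in macrophage-like cells. Of these, the hypoxic MES-like value was 0.03 under a stricter marker gate and the fibroblast-like value 0.52 when cells were averaged one by one. The tumor-like value was 0.19 without Xevinapant sample 3/4. For Tfrc the value was 0.67 in macrophage-like cells, against -0.71 in tumor-like, -0.78 in unnamed tumor, -0.85 in Gpr17 committed, -1.71 in endothelial-like, -0.4 in AC-like and -0.51 in hypoxic MES-like cells. For Slc11a2 the values were 0.28 in AC-like, 0.54 in hypoxic MES-like, 0.21 in Gpr17 committed and 0.84 in intermediate myeloid cells, against -0.41 in macrophage-like cells. For Mt1 the value was 0.39 in intermediate myeloid cells, against -0.54 in AC-like, -0.48 in hypoxic MES-like and -0.37 in Gpr17 committed cells. AC-like, hypoxic MES-like, Gpr17 committed and unnamed tumor cells are among the tumor-like cells, so those values share cells.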

How the results depend on the processing

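The groups did not overlap in 20 of 70 member comparisons, and in 10 when each matrix was 1 sample and in 28 to 41 when 1 sample was left out (32 without vehicle sample 1/3, 28 without 2, 32 without 4, 31 without Xevinapant sample 1/2 and 41 without 3/4), where fewer samples make overlap rarer. The other settings gave 18 to 22. Of 756 member values over all settings, 67 had the other sign, all in comparisons whose groups overlapped, and 9 moved by more than the spread between samples. Among the other iron and metal genes, the single call in macrophage-like cells became 0 with DESeq2, which gave Slc39a14 no adjusted p, 0 with DESeq2 size factors in edgeR, 0 without doublet removal, 0 without shared barcodes and 3 without a low-count filter, and 0 to 1 when 1 sample was left out. In the classes with 0 calls, DESeq2 gave 1 in tumor-like, 2 in hypoxic MES-like and 1 in fibroblast-like cells. With each matrix as 1 sample there was 1 in tumor-like and 3 in hypoxic MES-like cells. Without a low-count filter there were 4 in hypoxic MES-like, 1 in microglia-like and 3 in fibroblast-like cells, and leaving out 1 sample gave 0 to 1 in hypoxic MES-like cells. Over all genes, each matrix as 1 sample gave 602 of 13904 in tumor-like and 1511 of 11601 in hypoxic MES-like cells. No low-count filter gave 1252 of 16677 in hypoxic MES-like and 88 of 13831 in microglia-like cells. In macrophage-like and fibroblast-like cells it gave 237 of 15249 and 192 of 14449. The causes were not tested. The edgeR test with each matrix as 1 sample was not run for endothelial-like cells, where a matrix held 8 cells. The matrices of both groups share the numbers 1 to 4, which cut across the joined samples and are not given as animals by the labels. Over the 8 matrices, deviations from the group means correlated by -0.24 to 0.21 between matrices of the same number, not above 0.1 in every pair of any class, so the numbers were not taken as pairs. As a hint from the data, each vehicle matrix correlated best with its own number in macrophage-like (0.08 to 0.13) and fibroblast-like cells (0.02 to 0.09). Full barcodes were shared between matrices of the same number only, where a full barcode joins 16 droplet bases and 8 probe-barcode bases. Matrices of different numbers shared 36 to 1603 droplet barcodes but 0 full ones. The sharing therefore cannot tell whether the numbers are animals. A fit of each matrix as 1 sample with its number as replicate block, added after seeing the data, called 4 list genes over 6 classes against 5 without the block, with 3 in hypoxic MES-like cells, 1 in macrophage-like cells and 0 in the other classes. Over all genes of tumor-like cells it called 28 against 602 without the block. Of 11601 genes in hypoxic MES-like cells it called 1356 against 1511 without the block. Of 7598 genes in macrophage-like cells it called 165 against 110 without the block.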
